A study of Rattus norvegicus with 12 samples.

Results

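Cholesterol synthesis and its transcriptional control were examined in the hippocampus of 2 bred rat lines through 8 genes: the synthesis enzymes Hmgcs1, Fdps, Fdft1, Sqle, Cyp51 and Dhcr7, and Srebf1 and Srebf2, which encode the transcription factors SREBP-1 and SREBP-2. Members were all probes of the array whose symbol, with any ending for a predicted gene removed, was one of these 8 names. Each gene had 1 such probe, which gave 8 probes of the 22523 on the array (8 of 21363 named genes). The rats were male pups at postnatal day 14 from generation F15 of lines selected for how much they move in an unfamiliar place. Of these, 6 were bred High Responders (bHR, rats 27, 29, 33, 39, 41 and 47) and 6 were bred Low Responders (bLR, rats 26, 28, 30, 38, 42 and 46). Both lines carry only their breeding history as a difference in the labels, with no treatment and no engineered allele given. Total RNA of the whole hippocampus of each rat was hybridised to 1 Illumina RatRef-12 array, a bead array with oligonucleotide probes for rat transcripts. Litters are not given in the sources used here, so each pup was counted as an independent animal.

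Cells build cholesterol from acetyl-CoA through mevalonate and the isoprenoid farnesyl diphosphate, which squalene synthase commits to sterols and other enzymes divert to prenylated proteins, dolichol and ubiquinone. SREBP-1 and SREBP-2 are made as membrane precursors: when sterols are low, SCAP escorts them to the Golgi, where proteases release the active part, which binds sterol regulatory elements in promoters of the pathway. The release step acts on the protein, and mRNA levels of Srebf1 and Srebf2 do not measure it. The brain makes its own cholesterol because plasma lipoproteins hardly cross the blood-brain barrier, and in the weeks after birth much of it goes into myelin and growing neurites.

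Promoters are shown for the genes whose levels varied most closely together and most oppositely across rats, Fdps with Dhcr7 and Fdps with Srebf2. Each run is the 250 bases before the gene's start in RefSeq on build GRCr8, written 5′ to 3′ on the gene's strand. Capitals mark the NF-Y box CCAAT and the GC box GGGCGG on either strand, the letters bound by partner factors NF-Y and Sp1 that work with SREBPs at many sterol-regulated promoters. Fdps lies at chr2:176804817-176805066 on the minus strand, Dhcr7 at chr1:208444184-208444433 on the plus strand and Srebf2 at chr7:115543057-115543306 on the plus strand.
Fdps: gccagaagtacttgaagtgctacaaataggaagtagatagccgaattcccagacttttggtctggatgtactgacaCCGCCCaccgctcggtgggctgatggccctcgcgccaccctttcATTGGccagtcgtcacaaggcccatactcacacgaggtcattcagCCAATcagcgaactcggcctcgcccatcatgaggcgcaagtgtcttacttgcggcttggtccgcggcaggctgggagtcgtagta
Dhcr7: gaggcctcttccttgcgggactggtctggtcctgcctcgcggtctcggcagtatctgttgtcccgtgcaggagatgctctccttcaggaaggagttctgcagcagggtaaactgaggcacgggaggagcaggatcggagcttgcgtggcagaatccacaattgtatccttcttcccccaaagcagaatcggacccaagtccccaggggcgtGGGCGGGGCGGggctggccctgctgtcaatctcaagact
Srebf2: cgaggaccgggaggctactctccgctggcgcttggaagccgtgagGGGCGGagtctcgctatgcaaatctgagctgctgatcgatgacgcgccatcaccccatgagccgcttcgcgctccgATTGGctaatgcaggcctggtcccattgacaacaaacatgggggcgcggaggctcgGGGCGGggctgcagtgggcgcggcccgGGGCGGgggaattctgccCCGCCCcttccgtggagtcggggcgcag

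The Fdps window held an NF-Y box on each strand, 130 to 126 and 85 to 81 bases before the start, and 1 GC box. The Srebf2 window held 1 NF-Y box, 129 to 125 bases before the start, and 4 GC boxes. The Dhcr7 window held no NF-Y box and 2 GC boxes, which overlap by 1 base. RefSeq windows were found for 6 of the 8 genes, not for Fdft1 and Sqle, and Srebf1 had 2 windows. Of these 6 genes, 4 held an NF-Y box (Hmgcs1, Fdps, Srebf1 and Srebf2) and 6 a GC box, where 34.0% and 30.5% of all 33469 windows of the same length did. A sterol regulatory element searched as TCACNCCAC was found in 0 of the 6 genes and in 0.974% of all windows, and the E-box CACGTG in 0 and in 5.59%. A missing match says only that these letters are not in that window.

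Mean signal ran from 453 to 1038 units over the 12 arrays. Rats 27, 29 and 39, all bHR, had the dimmest arrays, at 453 to 488 units, against 750 to 1038 units on the other 9. Rat 27 also stood apart, with a mean correlation of 0.987 with the other arrays. The 9 measured markers of hippocampal neurons, among them Prox1 of the dentate gyrus and Wfs1 of CA1, all lay in the upper part of the signal range, above the median probe. Values below are log2 signals after quantile normalisation, on which the median probe reads 6.66, and differences are bHR minus bLR. A level of one probe is not set against that of another, since probes differ in how brightly they bind. In whole hippocampus, fewer cells of a type and less RNA per cell cannot be told apart.

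None of the 8 genes differed between the lines by the test across all probes. At a Benjamini-Hochberg adjusted limma p under 0.05, 0 of 8 were called, where 0.0888% of all probes were (20 of 22523). At an unadjusted p under 0.05, 0 of 8 passed, against 6.02% of all probes. The ranges of the lines overlapped for all 8, whereas 0.391% of all probes had ranges apart. The count was also 0 of 8 without rat 27 and on the 9 brighter arrays. Under quantile normalisation the mean was higher in bHR for 6 genes and lower for Fdft1 and Srebf2, but with arrays only centred on their medians it was higher for 1 (Cyp51) and with no scaling for 0. The median difference was +0.027 over the 8 against +0.0017 over all probes. With median centring these were -0.25 and -0.017, and with no scaling -0.45 and -0.22. Under quantile normalisation, with 6 rats per line, the confidence intervals reached up to a 1.45-fold higher level in bHR for Cyp51 and down to a 0.769-fold level for Srebf2. These intervals do not cover the choice of scaling. With median centring Fdft1 read -0.44 and Dhcr7 -0.32, below the lower ends of their intervals at -0.29 and -0.15. Cyp51 and Srebf2 then stayed within their intervals, and the other genes fell below theirs. With no scaling all 8 fell below, Fdft1 at -0.64 and Dhcr7 at -0.52.

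**Figure D1:**
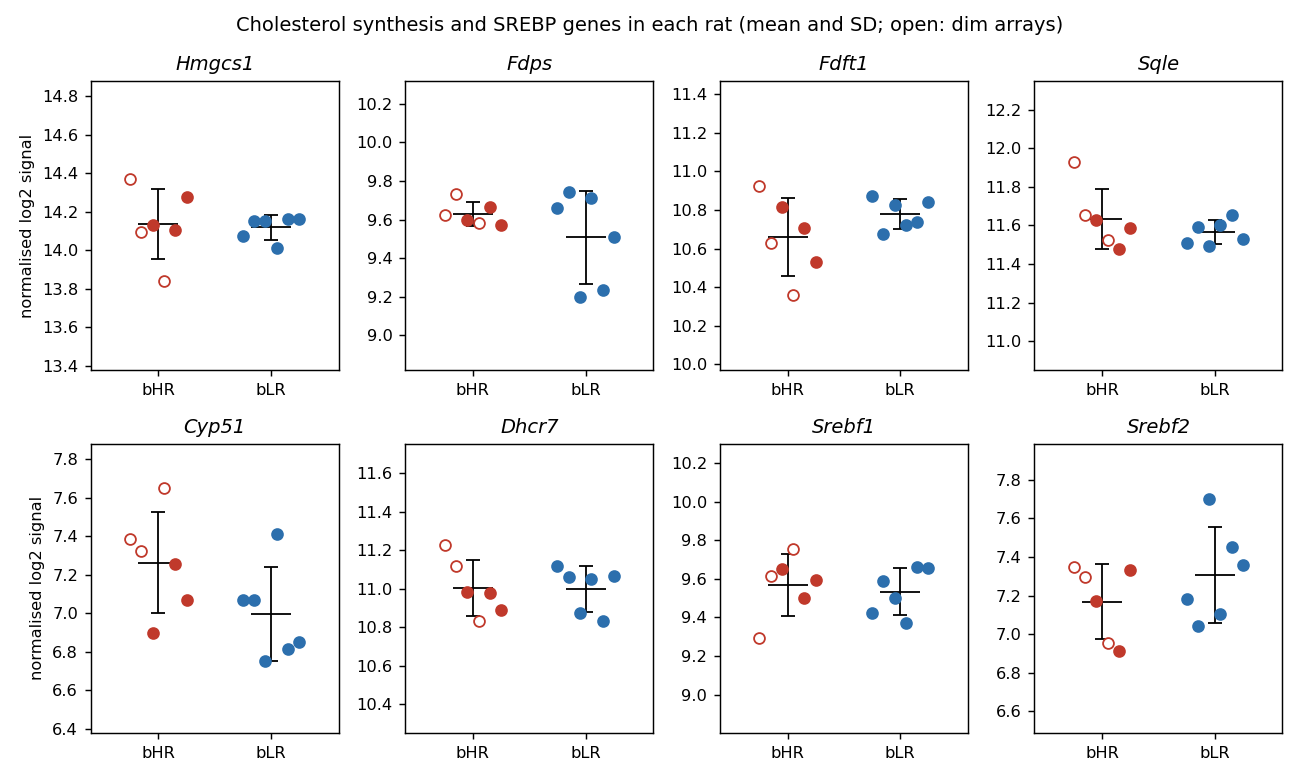
Normalised log2 signal of the 8 genes in each rat, bHR in red and bLR in blue, with the mean and SD of each line (6 rats). Open points are the 3 dim arrays, and each panel spans the same log2 width. The lines overlap for every gene shown, Fdps spreads wider in bLR and Hmgcs1, Fdft1 and Sqle spread wider in bHR.

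Of the enzymes early in the pathway, Hmgcs1 encodes the cytosolic synthase that makes HMG-CoA on the way to mevalonate. In bHR its lowest, median and highest log2 signals were 13.84, 14.12 and 14.37, and in bLR 14.01, 14.15 and 14.16. Rats 27 and 47 lay above all bLR rats and rat 39 lay below them, so bHR was the more variable line (SD 0.18 against 0.064). The difference was +0.017 (95% confidence interval -0.14 to 0.18, SE 0.074, n = 6 per line), with a limma adjusted p of 0.984 and an exact permutation p of 0.848. The probe sits at the 99.6th percentile of signal. Quantile normalisation gives equal ranks an equal value, and rats 28 and 30 share 1 value, as do rats 42 and 46.

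Fdps encodes farnesyl diphosphate synthase, whose product is the point where the sterol and isoprenoid branches part. Signals in bLR were 9.66 in rat 26, 9.74 in rat 28, 9.20 in rat 30, 9.71 in rat 38, 9.23 in rat 42 and 9.51 in rat 46. Rats 30 and 42 deviated from the mean of their line by -0.31 and -0.27. In bHR the signals were 9.62 in rat 27, 9.73 in rat 29, 9.60 in rat 33, 9.58 in rat 39, 9.66 in rat 41 and 9.57 in rat 47. The 6 bHR rats lay within the range of bLR, and the SD was 0.061 in bHR and 0.24 in bLR. The mean difference was +0.12 (95% confidence interval -0.075 to 0.32, SE 0.091, n = 6 per line; limma adjusted p 0.896, exact permutation p 0.318). Without rat 30 it was +0.057, and without rat 42 +0.065.

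Fdft1 encodes squalene synthase, the first enzyme committed to sterols. Its lowest, median and highest signals were 10.36, 10.67 and 10.92 in bHR and 10.68, 10.78 and 10.87 in bLR. Rats 39, 47 and 29 lay below all bLR rats and rat 27 lay above them. The difference was -0.12 (95% confidence interval -0.29 to 0.056, SE 0.082, n = 6 per line; limma adjusted p 0.884, exact permutation p 0.216), and without rat 39 it was -0.059.

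Sqle encodes squalene epoxidase, the first oxygenation step and a point of control of the pathway. Signals ran from 11.48 over a median of 11.61 to 11.93 in bHR, and from 11.50 over 11.56 to 11.66 in bLR. The top of the bHR range was rat 27, the single rat above all bLR rats, while rat 41 was the single rat below them. The difference was +0.069 (95% confidence interval -0.076 to 0.21, SE 0.068, n = 6 per line; limma adjusted p 0.931, exact permutation p 0.411), and without rat 27 it was +0.010.

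Cyp51, lanosterol 14-alpha-demethylase, demethylates lanosterol, the first sterol of the pathway, and had the largest difference in means among the 8 under quantile normalisation. Signals in bHR were 7.39 in rat 27, 7.32 in rat 29, 6.90 in rat 33, 7.65 in rat 39, 7.25 in rat 41 and 7.07 in rat 47. In bLR they were 7.07 in rat 26, 7.07 in rat 28, 6.76 in rat 30, 7.41 in rat 38, 6.82 in rat 42 and 6.85 in rat 46. Rat 39 alone exceeded the highest bLR rat, and no bHR rat lay below the lowest. The difference was +0.27 (95% confidence interval -0.00094 to 0.54, SE 0.13, n = 6 per line), or 1.2-fold higher in bHR, with a limma p of 0.0507 before and 0.828 after adjustment and an exact permutation p of 0.0996. Its probe sits at the 60.0th percentile of signal, with 116 to 192 units before normalisation, where the array medians were 81.8 to 120 units. The 3 highest bHR rats were those with dim arrays. On the 9 brighter arrays the difference was +0.084 (limma adjusted p 0.952).

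Dhcr7 encodes the reductase of the last step to cholesterol, whose loss causes Smith-Lemli-Opitz syndrome in humans. Its lowest, median and highest signals were 10.83, 10.98 and 11.23 in bHR and 10.83, 11.06 and 11.12 in bLR. Rats 30 and 42, low in Fdps, were also the lowest of bLR here, at 10.87 and 10.83. The lines differed by +0.0048 (95% confidence interval -0.15 to 0.16, SE 0.073, n = 6 per line; limma adjusted p 0.997, exact permutation p 0.955), and by -0.048 on the 9 brighter arrays.

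Of the regulators, Srebf1, better known as the driver of fatty acid synthesis genes, ran from 9.29 over a median of 9.61 to 9.76 in bHR and from 9.37 over 9.54 to 9.66 in bLR. Rat 27 lay below all bLR rats and rat 39 above them, the reverse of their places in Hmgcs1 and Fdft1. The difference was +0.036 (95% confidence interval -0.13 to 0.20, SE 0.077, n = 6 per line; limma adjusted p 0.967, exact permutation p 0.673).

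Srebf2, the main driver of sterol synthesis genes, had signals in bLR of 7.18 in rat 26, 7.04 in rat 28, 7.70 in rat 30, 7.10 in rat 38, 7.45 in rat 42 and 7.36 in rat 46. Rats 30 and 42 were thus the highest of their line, while rats 28 and 38, the highest for Fdps, were the lowest. In bHR the lowest, median and highest signals were 6.91, 7.23 and 7.35. The probe sits at the 61.4th percentile of signal, with 101 to 243 units before normalisation. The difference was -0.14 (95% confidence interval -0.38 to 0.10, SE 0.11, n = 6 per line; limma adjusted p 0.907, exact permutation p 0.299). Without rat 30 it was -0.059, and without rat 41 -0.087.

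The other genes of the pathway were taken from 7 lists with 58 genes, of which 49 were measured. None of the 49 was called by limma at an adjusted p under 0.05, and 2 passed an unadjusted p under 0.05, Idi1 and Dhdds, where 6.02% of all probes did. Under quantile normalisation the mean was higher in bHR for 25 and lower for 24, with a median difference of +0.0053. For all 49, as for the 8 members, the ranges of the lines overlapped.

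**Figure D2:**
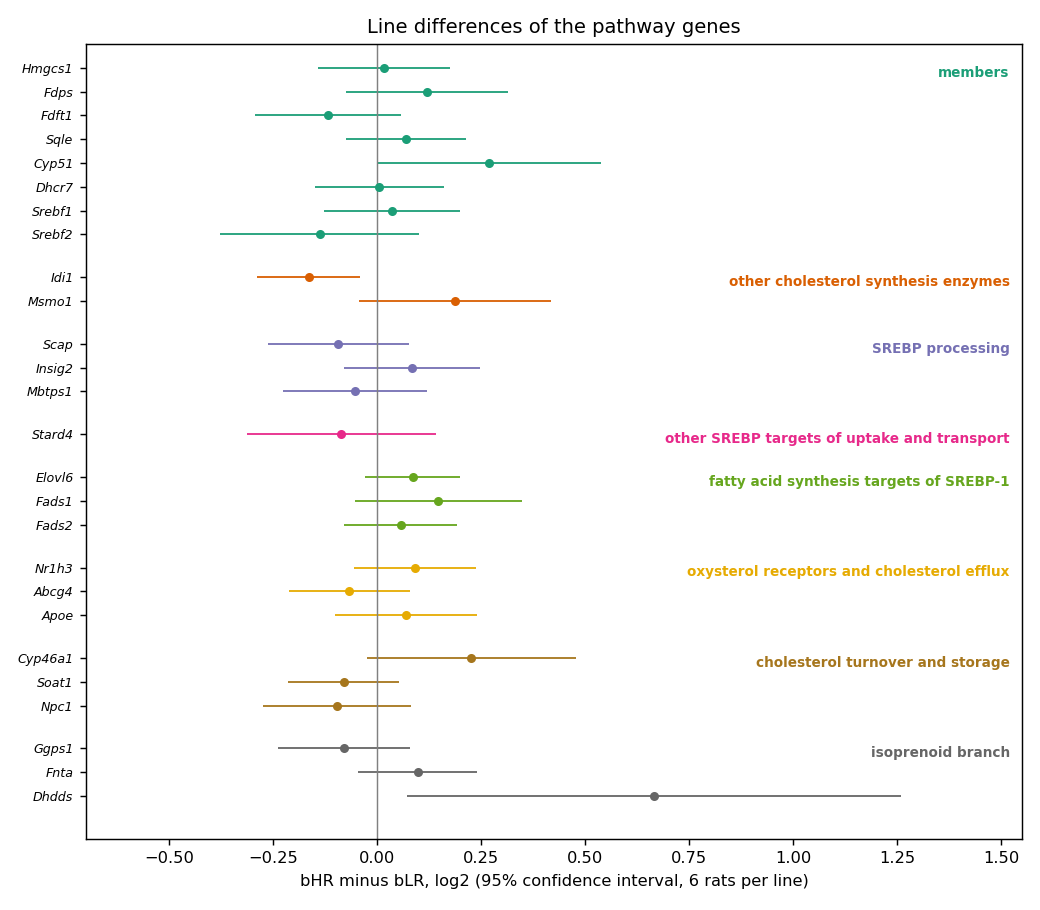
Difference between the line means (bHR minus bLR, log2) with its 95% confidence interval for the 8 genes and the 18 other pathway genes named in the text, chosen among the lowest p of their lists, 6 rats per line, brightest probe of each gene. Most intervals span 0, and those of Idi1 and Dhdds do not, before any adjustment for the number of probes.

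Of 15 other synthesis enzymes 12 were measured, 6 with a higher and 6 with a lower mean in bHR (median +0.017), and Mvk, Lss and Lbr had no probe under these names. Idi1, the isomerase that makes dimethylallyl diphosphate, ran from 9.78 over 9.94 to 10.03 in bHR and from 9.98 over 10.09 to 10.22 in bLR. Its ranges thus met over a narrow stretch, and the difference of -0.17 (95% confidence interval -0.29 to -0.040, n = 6 per line) had a limma adjusted p of 0.711 and an exact permutation p of 0.0195. Msmo1, the C4-methylsterol oxidase, followed at +0.19 (limma adjusted p 0.855).

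There were 4 lists that cover the control and use of SREBPs and sterols. Of the genes that process SREBPs 4 of 5 were measured, and Scap, the escort protein, differed by -0.093, the retention factor Insig2 by +0.084 and the site-1 protease Mbtps1 by -0.054 (limma adjusted p 0.914 to 0.953). SREBP targets of uptake and transport were all 3 measured, 1 higher and 2 lower in bHR (median -0.048), with Stard4, a sterol carrier, at -0.086. Of 12 fatty acid synthesis targets 10 were measured, 6 higher and 4 lower in bHR (median +0.021), and the lowest p-values belonged to the elongase Elovl6 (+0.085) and the desaturases Fads1 (+0.15) and Fads2 (+0.056). The 8 genes of oxysterol receptors and efflux were 5 higher and 3 lower (median +0.020), with Nr1h3, the oxysterol receptor LXR-alpha, at +0.091, the transporter Abcg4 at -0.067 and the lipoprotein Apoe at +0.069.

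Of the 7 genes of cholesterol turnover and storage, 4 were higher and 3 lower (median +0.040). Cyp46a1, the neuronal 24-hydroxylase by which the brain disposes of cholesterol, ran from 8.03 over 8.27 to 8.76 in bHR and from 7.82 over 8.21 to 8.27 in bLR. Its difference was +0.23 (95% confidence interval -0.026 to 0.48, n = 6 per line; limma adjusted p 0.828, exact permutation p 0.139), while Soat1, which esterifies cholesterol, was at -0.080 and Npc1, which exports it from lysosomes, at -0.097. In the isoprenoid branch 5 of 8 genes were measured, and Dhdds, a subunit of the dolichol-making prenyltransferase, ran from 8.23 over 8.97 to 9.90 in bHR and from 7.70 over 8.36 to 8.86 in bLR. Its difference was +0.67 (95% confidence interval 0.071 to 1.26, n = 6 per line), with a limma adjusted p of 0.794 and an exact permutation p of 0.0887. The farnesyltransferase subunit Fnta was at +0.097 and Ggps1, which makes geranylgeranyl diphosphate, at -0.081.

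Covariation across rats was measured on deviations from the mean of each rat's own line, so that line differences do not enter. Over the 28 pairs of the 8 genes, Pearson's r had a median of -0.0076, with 14 pairs above and 14 below 0. All pairs of the 11261 probes above the median signal had a median of 0.0 and a 5th to 95th percentile range of -0.62 to 0.63. These values hold for quantile normalised arrays: with median centring the median r was 0.53 and 11 pairs passed an adjusted permutation p of 0.05, and with no scaling it was 0.77 and 10 pairs passed. For these other scalings r over all probe pairs was not computed, so the counts have no background beside them. Before normalisation the 95th percentile of signal was 31.1 to 33.1 times the 5th on the 3 dim arrays and 52.4 to 67.2 times on the other 9. Whether this bears on r was not tested. After quantile normalisation, with 100000 permutations within lines, 4 pairs had p under 0.05, and 0 of 28 did after Benjamini-Hochberg adjustment over the pairs (lowest 0.196). By Spearman's rho the counts were 4 and 0 (lowest 0.303).

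**Figure D3:**
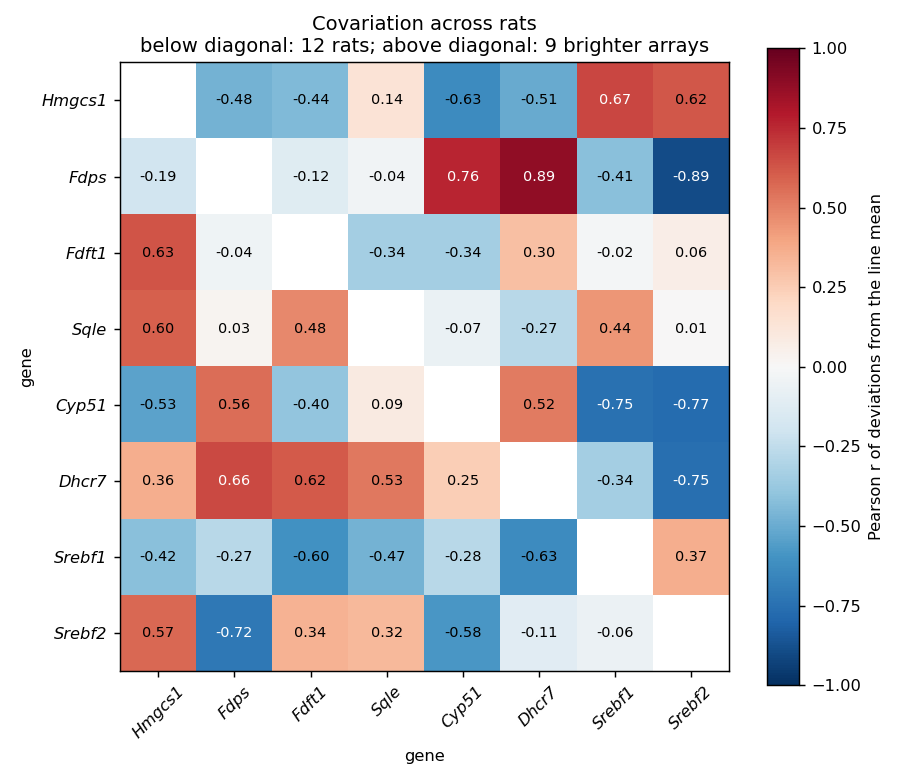
Pearson correlation of deviations from the line mean for each pair of the 8 genes, from -1 (blue) to 1 (red). Cells below the diagonal use all 12 rats and cells above it the 9 brighter arrays. A mirror cell of another colour marks a pair whose r differed between these sets, as for Hmgcs1 with Fdft1 (0.63 and -0.44). The 3 dim arrays are all bHR, so the mix of lines differs between the sets too. With brightness as a block over 12 rats, Hmgcs1 with Fdft1 had an r of 0.62.

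Fdps and Dhcr7 had the highest r, at 0.66 (permutation p 0.0111, adjusted 0.196, n = 12 rats; rho 0.66, permutation p 0.0192, adjusted 0.303). It was 0.56 within bHR (exact permutation p 0.247) and 0.90 within bLR (exact permutation p 0.0486). On the 9 brighter arrays it was 0.89 (adjusted permutation p 0.168). Without rats 30 and 42, the farthest in Fdps, it was 0.32, and without rats 27 and 39, the farthest in Dhcr7, it was 0.86. With median centring it was 0.91 (adjusted permutation p 0.00112) and with no scaling 0.95 (adjusted permutation p 0.00056). Of all probe pairs under quantile normalisation, 4.2% had an r at least as high as the 0.66 over 12 rats.

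Fdps and Srebf2 had the lowest r, at -0.72 (permutation p 0.0140, adjusted 0.196, n = 12 rats; rho -0.67, permutation p 0.0217, adjusted 0.303). Within bLR it was -0.95 (exact permutation p 0.00139), and within bHR 0.066 (exact permutation p 0.922). On the 9 brighter arrays it was -0.89 (adjusted permutation p 0.00476), the single pair of 28 past 0.05 there. Without rats 30 and 42, both bLR and the farthest in Fdps, r over the remaining rats of both lines was -0.34. Without rats 28 and 30, the farthest in Srebf2, it was -0.46. The bLR relation did not rest on rats 30 and 42 alone. In rats 46, 26, 38 and 28 Fdps rose from 9.51 over 9.66 and 9.71 to 9.74, while Srebf2 fell from 7.36 over 7.18 and 7.10 to 7.04. With median centring r over 12 rats was -0.51 (adjusted permutation p 0.225) and with no scaling 0.12 (0.714). Of all probe pairs under quantile normalisation, 2.13% had an r at least as low as the -0.72 over 12 rats.

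**Figure D4:**
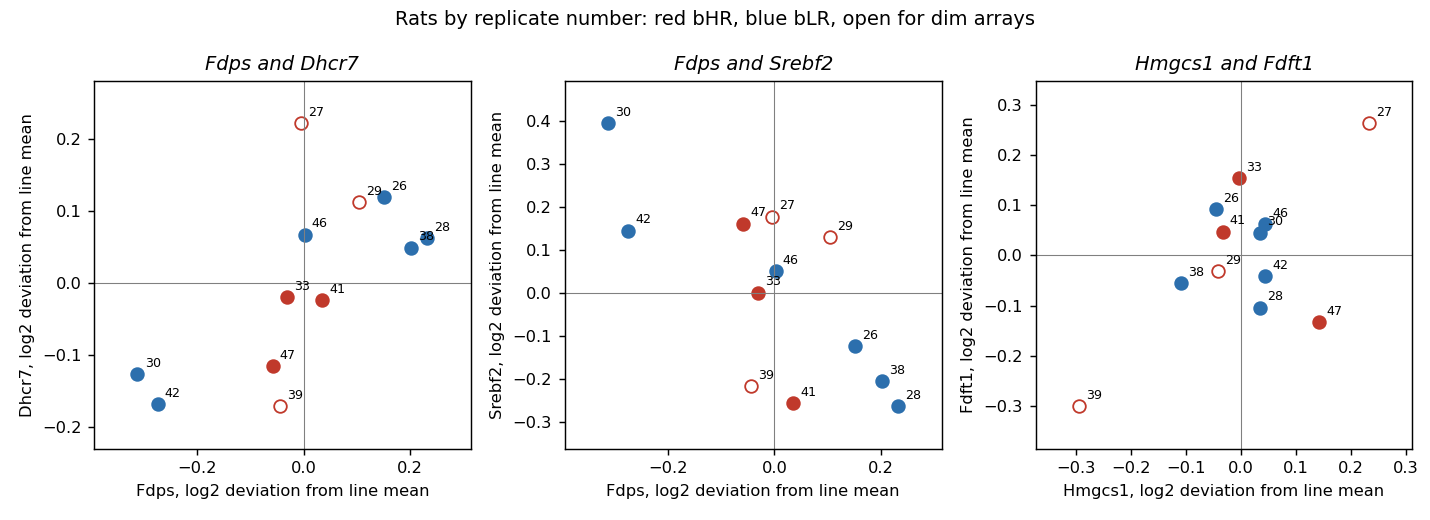
Deviations from the line mean (log2) for Fdps against Dhcr7, Fdps against Srebf2 and Hmgcs1 against Fdft1, 1 point per rat with its number, bHR red, bLR blue, open for dim arrays. Rats 30 and 42 sit at the low Fdps end of the first 2 panels, and rats 27 and 39 at the ends of the last.

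The other pairs with Srebf2 fell on both sides of 0. With Hmgcs1 r was 0.57 (permutation p 0.0266, adjusted 0.235), 0.62 on the 9 brighter arrays and 0.50 without rats 27 and 39. With Cyp51 it was -0.58 (permutation p 0.0621), -0.77 on the 9 brighter arrays and -0.65 without rats 33 and 38. With Fdft1, Sqle, Dhcr7 and Srebf1 it was 0.34, 0.32, -0.11 and -0.057, and on the 9 brighter arrays 0.063, 0.0078, -0.75 and 0.37.

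Srebf1 had an r below 0 with each of the other 7 genes over 12 rats, from -0.057 with Srebf2 to -0.63 with Dhcr7. The pair with Dhcr7 had a permutation p of 0.0447 (adjusted 0.235), and r was -0.25 without rats 27 and 39. With Fdft1, Sqle, Cyp51 and Fdps r was -0.60, -0.47, -0.28 and -0.27, and on the 9 brighter arrays -0.016, 0.44, -0.75 and -0.41. Without rats 27 and 39 r with Fdft1 was -0.032. With Hmgcs1 it was -0.42 in all, -0.80 within bHR and 0.89 within bLR (exact permutation p 0.0597 and 0.00556), and 0.67 on the 9 brighter arrays. The sign with Sqle and Srebf2 also turned to above 0 there, at 0.44 and 0.37.

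A further set of 6 positive pairs joined Hmgcs1, Fdft1, Sqle and Dhcr7. Deviations in rat 27 were +0.23 for Hmgcs1, +0.26 for Fdft1, +0.29 for Sqle and +0.22 for Dhcr7, and in rat 39 they were -0.29, -0.30, -0.11 and -0.17. Hmgcs1 and Fdft1 had an r of 0.63 (permutation p 0.104) over 12 rats, -0.44 on the 9 brighter arrays and -0.35 without rats 27 and 39. Hmgcs1 and Sqle had 0.60 over 12 rats and -0.0046 without rats 27 and 39. Fdft1 and Dhcr7 had 0.62 (permutation p 0.0555, adjusted 0.235; rho 0.60) and stayed above 0, at 0.41 without rat 27, 0.30 on the 9 brighter arrays and 0.18 without rats 27 and 39. The other 3, Hmgcs1 with Dhcr7, Fdft1 with Sqle and Sqle with Dhcr7, had 0.36, 0.48 and 0.53 over 12 rats and -0.51, -0.34 and -0.27 on the 9 brighter arrays. Between all rats and the 9 brighter arrays, 9 of the 28 pairs changed sign, and 4 did without rat 27 alone. Since the 3 dim arrays are all bHR, brightness and the mix of lines change together between these sets and cannot be told apart there.

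Levels of cell type markers moved with rat 27 too. Of the 12 rats it was the highest for Hmgcs1, Fdft1, Sqle and Dhcr7 and the lowest for Srebf1. By signal summed over each list, in which the brightest probes weigh most, it was the highest of bHR for markers of neurons (91309 units against 72232 to 74803 in bLR), astrocytes (61095 against 43233 to 53985) and myelinating oligodendrocytes (26043 against 17053 to 22783). It was the lowest of bHR for microglia (5053 against 7290 to 8204), choroid plexus (893 against 11854 to 39249), meninges (13178 against 15798 to 23539) and blood (20007 against 28308 to 62236). Low choroid plexus signal was not confined to rat 27. Of the bHR rats, 2 lay below all bLR rats for Ttr, Folr1, Kl, Aqp1 and Sostdc1, 3 for Otx2, and 1 for Clic6 and Kcnj13. For each of these except Kcnj13, 3 bHR rats lay above all bLR rats. Correlations without rat 27 are given above, and the part of the marker levels in them was not tested.

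Myelin, the main store of brain cholesterol, has its own markers on the array. Of the 11 measured markers of myelinating oligodendrocytes 8 had a higher mean in bHR, 0 were called and 3 passed an unadjusted p under 0.05, as 6.02% of all probes did. Cnp, a myelin enzyme, was at +0.23 (limma adjusted p 0.399) and Opalin, an oligodendrocyte membrane protein, at -0.45 (adjusted p 0.509). The summed level of the 11 was 18719 to 26043 units in bHR and 17053 to 22783 in bLR. In the lists of oligodendrocyte precursors, astrocytes, neurons, microglia, vessels, choroid plexus, meninges and blood 0 genes were called either. Whether these levels bear on the 8 genes was not tested.

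Against the 12 other measured synthesis enzymes, the 8 genes gave 96 pairs, of which 12 had a permutation p under 0.05 and 0 an adjusted one (lowest 0.128). Of the 96, 9 lay below the 5th or above the 95th percentile of r over all probe pairs, a share near that background. Srebf1 and Nsdhl, a C4-demethylation enzyme, had an r of -0.82 (permutation p 0.00239, adjusted 0.128; rho -0.66, permutation p 0.0272), which was -0.57 on the 9 brighter arrays and -0.54 without rats 27 and 38. Dhcr7 and Msmo1 had 0.81 (permutation p 0.00266, adjusted 0.128; rho 0.71, permutation p 0.0157), 0.83 on the 9 brighter arrays and 0.83 without rats 27 and 39. Both were chosen after their values were seen, as the pairs with the lowest p.

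The probes most like each gene across the 12 rats, by r of deviations from the line mean among those above the median signal, belonged to no gene of the lists above. They are given as a description, as the highest 3 of 11261 are high by selection. For Hmgcs1 they were Gsr (0.93), RGD1305986 (0.93) and Tbc1d5 (0.92), for Fdps Casp1 (0.92), Srsf7 (0.92) and Leng1 (0.91), and for Fdft1 Vdac1 (0.96), Rabep1 (0.94) and Zmynd11 (0.92). For Sqle they were Spats2l (0.91), Ube2e3 (0.89) and Dtx3 (0.89), for Cyp51 Cnnm1 (0.92), Tbcb (0.89) and Lpxn (0.89), and for Dhcr7 Nasp (0.93), Ufsp2 (0.92) and Zfp277 (0.92). For Srebf1 they were Dut-ps (0.87), RGD1564423 (0.85) and Paip2b (0.84), and for Srebf2 Sema5b (0.94), Man2a2 (0.94) and Rcc2 (0.94).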

How the data were processed

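Whole hippocampus of 12 rats was measured on 12 arrays, 1 per rat. The deposited table holds intensity values, the linear mean bead signal of 22523 probes before normalisation between arrays. The authors also deposited their own quantile normalised values on the log2 scale. The submitters' processing notes name limma 3.28.21 and the design text preprocessCore 1.34.0. The sources used here give neither background correction nor detection p-values.

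The intensities were put on the log2 scale and quantile normalised over all arrays without background correction. The values differed from those of the authors by a median of 0.00037 and at most 0.254. Line was fitted for each probe with limma 3.58.1 (lmFit, then eBayes) under R 4.3.3, two-sided, with adjustment by Benjamini-Hochberg over all probes. Exact permutation tests used all 924 assignments of rats to lines (smallest two-sided p 0.0022), correlations 100000 permutations within lines, and tests within 1 line every order of its 6 rats. Gene names were updated through RefSeq names of GRCr8 (10291 probes by symbol, 4966 by synonym, 1642 by gene identifier; 5462 kept the file's name, 45 were ambiguous and 117 had none). For list genes with several probes the brightest was used.

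The members and lists were chosen with earlier results of these data known. Named were all members, up to 3 genes of lowest p per pathway list, the pairs of highest and lowest r, all pairs with Srebf1 or Srebf2, and the 3 probes most like each member. The pairs among Hmgcs1, Fdft1, Sqle and Dhcr7 were named after their values were seen. Results of some genes that this rule names are not reported here. The test was tried on simulated data. With 6 rats per line the number of arrays limits the precision. Alternatives were other scalings, normexp background correction (offset 50), the authors' values, filters on dim probes, array weights, a variance trend, the 9 brighter arrays, brightness as a block, leaving out each rat and other thresholds.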

Additional observations from a re-analysis of the deposited data

How the results depend on the processing

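At an adjusted p of 0.05, 0 of the 8 genes and 0 of the other pathway genes were called under every scaling, filter, fit and set of rats run. At an unadjusted p of 0.05, 0 of the 8 and 2 of the others passed in the main fit on quantile normalised values. With no scaling, limma adjusted p was 0.092 to 0.0963 for Fdft1, Srebf2, Dhcr7, Sqle and Srebf1. It was 0.101 for Hmgcs1, 0.147 for Fdps and 0.794 for Cyp51, where 7190 of all 22523 probes lay under 0.10. With median centring the limma adjusted p was 0.178 for Fdft1, 0.192 for Dhcr7, 0.199 for Sqle and 0.203 for Srebf1. It was 0.22 for Srebf2, 0.222 for Hmgcs1, 0.348 for Cyp51 and 0.409 for Fdps. An unadjusted p under 0.05 was reached by 5479 of all probes with median centring and 9874 with no scaling. How many of the 8 reached it under these 2 scalings was not counted. All probes called numbered 20, against 6 with median centring, 4 with no scaling, 6 with brightness as a block, 1355 at an unadjusted p of 0.05, and 9 to 24 leaving out each rat in turn. The direction of the small differences depended on scaling. The median difference of the members was -0.25 with median centring, where that of all probes was -0.017. With no scaling it was -0.45 for the members, where the median of all probes itself moved to -0.22 and the 3 dim arrays, all bHR, stay dim. With median centring Hmgcs1 read -0.25, Fdps -0.18, Sqle -0.26, Dhcr7 -0.32 and Srebf1 -0.25. With no scaling they read -0.45, -0.38, -0.46, -0.52 and -0.45, and Cyp51 -0.036. Array weights gave -0.019 for Hmgcs1 and -0.026 for Dhcr7, and Dhcr7 was -0.048 on the 9 brighter arrays and -0.049 with brightness as a block. Leaving out each rat, Hmgcs1 ranged from -0.028 to 0.075, Dhcr7 from -0.040 to 0.040 and Srebf1 from -0.0016 to 0.092, and Fdps from 0.057 to 0.17, Srebf2 from -0.19 to -0.059 and Fdft1 from -0.17 to -0.059. Fdft1 and Srebf2 were below 0 under every alternative run.

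Pearson's r over all probe pairs was computed for quantile normalised values only. The median r between members was 0.53 with median centring and 0.77 with no scaling, and 11 and 10 pairs then passed an adjusted permutation p of 0.05. It was -0.096 on the 9 brighter arrays, -0.040 with brightness as a block, 0.088 by Spearman's rho and -0.017 to 0.072 leaving out each rat. Fdps and Srebf2 had an r of 0.12 with no scaling, and -0.79 (adjusted permutation p 0.0412) without rat 29. The cause was not tested. Averaging the probes of a gene was not run, since each member has 1 probe. No paired analysis was possible because the rat numbers are animal numbers that no 2 rats share.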
